A study of Mus musculus with 4 samples.

Results

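The genes described here are 37 mouse genes of cell adhesion to the extracellular matrix: 18 integrin chains and 19 focal adhesion proteins that join integrins to the actin cytoskeleton. They were selected by gene symbol, out of 18194 symbols that stand alone on a probe set of the array, by a rule that uses no measured value, although the list was drawn up with earlier results of these data known. Of the 37 genes, 35 had at least 1 probe set of their own, 87 in all. The integrin chain gene Itga11 and the focal adhesion kinase gene Ptk2 were not analysed here. After dim probe sets were removed, 64 probe sets of 32 genes were left, and Itga4, Itgb6 and Itgb8 had none. Which genes passed this filter depends in part on their level in the knockout cells, so the counts below describe the 32 measured genes.

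The arrays compared Klf5 KO embryonic stem (ES) cells, in which the gene of the zinc finger transcription factor Klf5 is knocked out, with wild-type (WT) ES cells, each group being represented by clones 1 and 2 with 1 Affymetrix array per clone. ES cells are cultured cells of the early embryo that can form all tissues. Both groups were kept in ES medium with 15% serum and the cytokine LIF. The submitters searched for genes with reduced expression after loss of Klf5. The labels give neither the way the gene was disrupted, nor the parental line, nor culture or array dates, and separate clones are named without saying that they were grown apart in time.

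Integrins are receptors made of an alpha and a beta chain, and the pair decides which matrix protein is bound: collagens, laminins, or proteins such as fibronectin and vitronectin that carry an arginine-glycine-aspartate (RGD) motif. Their short cytoplasmic tails recruit talins and kindlins, which switch the receptor on, and then a layer of adaptor and kinase proteins and a layer of actin-binding proteins. Together these form the focal adhesion. ES cells attach to their substrate through integrins that contain the beta 1 chain, and spread or contractile cells such as fibroblasts build large focal adhesions.

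Klf5 itself separated the groups as labelled. Its brightest probe set read 34.8 and 49.9 in KO clones 1 and 2, against 2398 and 1782 in WT clones 1 and 2. A second Klf5 probe set read 82.6 and 61.0 in KO clones, against 102.3 and 88.6 in WT clones, and did not pass (adjusted p = 0.36). As a sign of RNA quality, the log2 difference between the 3′ and 5′ probe sets of Actb was 0.75 and 0.52 in KO clones, against 0.48 and 0.44 in WT clones, and its part in the results was not tested. Intensities are given after quantile normalization, fold changes as the difference of mean log2(intensity + 16), KO minus WT, with the moderated standard error (SE, n = 2 arrays per group), and p-values from limma adjusted over all 27022 kept probe sets, with 0.05 as the threshold. Since the clones are the only replicates, these p-values rest on 2 clones per group. For each probe set limma pools the spread between clones with that of all kept probe sets, with 6.87 prior against 2 residual degrees of freedom. A p-value therefore does not measure the spread of that probe set alone. Probe sets bind with different strength, so levels are compared between arrays and never between genes. Of all 13023 genes tested, 68.6% of the calls were on the higher side, and 32.2% when arrays were centred on their median instead. In bulk RNA a change in the share of cells of a type and a change in RNA per cell cannot be told apart.

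Most of the adhesion genes did not pass the test, and those that did were higher without Klf5. Of the 32 measured genes, 3 rose (Parva, Zyx and Itgb3), 0 fell and 29 did not pass. The count of rises was 0 with a pseudocount of 1, with no filter, in the values as deposited, and when WT clone 2 or either KO clone was omitted. It was 2 (Parva and Zyx) when WT clone 1 was omitted. The 3 rises of the reported fit are 9.38% of the measured genes, beside 2.94% of all genes tested, and 0% were lower, beside 1.34%. These rises include Itgb3, which was kept through the KO clones, in which it is high. Over probe sets, 4 of 64 were called higher and 0 lower, beside 2.44% and 1.25% of all kept probe sets. At an unadjusted p under 0.05, limma gave 7 higher and 2 lower, beside 10.9% and 10.6% of all genes. Itgb3 is also among these 7 and the 4 probe sets, where its count is no support for a difference. The median log2 fold change was 0.087, beside -0.024 over all genes. Set against the mean of the WT clones, it was -0.019 for KO clone 1 and 0.22 for KO clone 2, and with arrays centred on their median it was -0.059, beside -0.19 over all genes.

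In 12 of the 32 genes (37.5%) both KO clones read above both WT clones, and in 7 (21.9%) both read below. Over all genes these shares were 25.9% and 29.7%. By size alone, 1 gene was at least 2-fold higher in all 4 pairings of a KO with a WT clone and 0 were lower, beside 1.38% and 0.323% of all genes. At 1.5-fold, 6 were higher (Csrp1, Ilk, Itgb1, Itgb3, Parva and Zyx) and 0 lower, beside 3.55% and 1.88%. Itgb3, kept through the KO clones, is among the 12 and the 6, and its count there is no support for a difference.

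**Figure D1:**
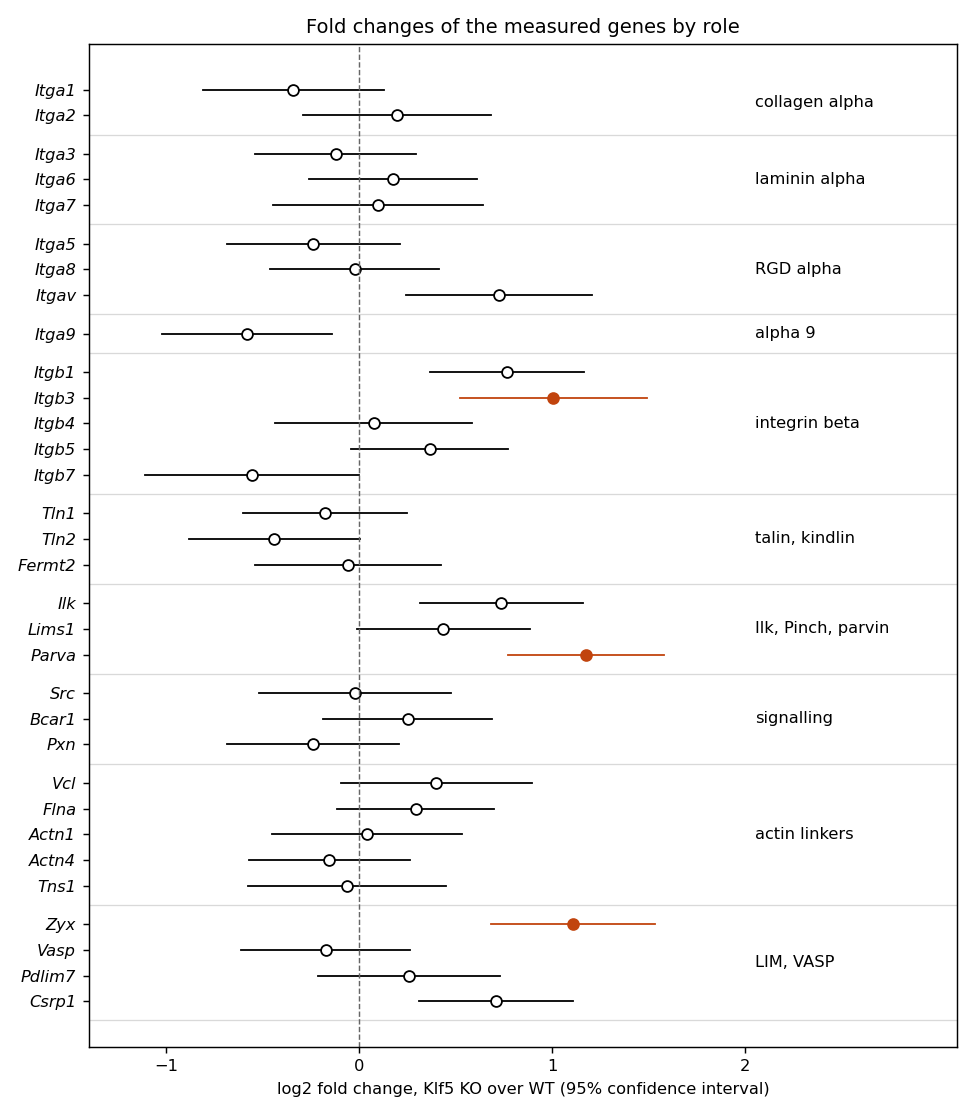
Log2 fold change, Klf5 KO over WT, of the 32 measured genes by role (points) with the 95% confidence interval from limma (lines, n = 2 arrays per group). Filled points passed the threshold: Itgb3, Parva and Zyx, all higher, at 1.01, 1.18 and 1.11.

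Among the alpha chains 0 of the 9 measured passed, in either direction. Itga1 and Itga2 are the measured collagen-binding chains of the list. Itga1 had 35.5 and 41.0 in KO clones, against 43.1 and 63.7 in WT clones, and the groups did not overlap. Its log2 fold change was -0.34 (95% confidence interval -0.81 to 0.13). Itga2 had 15.8 and 15.4 in KO clones, against 17.1 and 7.03 in WT clones, so that 1 WT array lay above both KO arrays, near the filter intensity of 13.05.

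On the probe sets that represent them, the laminin-binding chains overlapped between the groups. Itga6, which pairs with beta 1 or beta 4 and is a common surface marker of ES cells, had 1381 and 1273 in KO clones, against 1300.1 and 1052 in WT clones. Its log2 fold change was 0.18 (-0.26 to 0.61), while a second probe set of the gene had -0.37 (adjusted p = 0.32). That second probe set read lower in both KO clones, with 536 and 665, against 824 and 732 in WT clones. Itga3, another laminin chain, had 272 and 319 in KO clones, against 327 and 318 in WT clones, a log2 fold change of -0.12 (-0.54 to 0.29). Its other kept probe sets were separated in opposite directions, at -0.24 (adjusted p = 0.48) and 0.27 (adjusted p = 0.49). Itga7, known from muscle, read from 27.4 to 44.0 in KO clones and from 24.0 to 40.7 in WT clones.

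Of the 3 RGD-binding chains, 0 passed. Itgav, the alpha chain shared by the vitronectin receptors, had 664 and 787 in KO clones, against 506 and 368 in WT clones. Both KO clones were higher, by 0.72 ± 0.21 on the log2 scale, which missed the threshold (adjusted p = 0.10). A second, dimmer probe set of Itgav had 0.13 (adjusted p = 0.82). Itga5, the alpha chain of the fibronectin receptor, had 65.5 and 89.9 in KO clones, against 92.8 and 94.2 in WT clones, with a log2 fold change of -0.24 (-0.69 to 0.21). Its second kept probe set had 22.7 and 32.1 in KO clones, against 40.01 and 53.97 in WT clones, and -0.54 (adjusted p = 0.19), lower in both KO clones as well. Itga8 overlapped between groups, at -0.023 (-0.46 to 0.42).

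Itga9, a chain that binds tenascin and VCAM-type ligands, had 37.3 and 43.9 in KO clones, against 77.4 and 60.4 in WT clones. Both KO clones were lower, with a difference of -0.58 ± 0.19 in log2 intensity that missed the threshold (adjusted p = 0.14), and its second kept probe set had -0.44 (adjusted p = 0.30). Its relative Itga4 was listed on 5 probe sets, all under the filter. The brightest of them read 7.80 and 16.8 in KO clones and 2.13 and 8.90 in WT clones.

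Of the 5 measured beta chains, 1 rose (20%), beside 2.94% of all genes tested, and 4 did not pass. Itgb3, which pairs with the alpha v chain in the vitronectin receptor, had 23.6 and 37.9 in KO clones, against 5.10 and 9.05 in WT clones. It rose by 1.01 ± 0.21 on the log2 scale (adjusted p = 0.038). Both WT values lie under the filter intensity of 13.05, so the gene was kept through the KO clones, in which it is high, and its count among the rises is no support for a difference. With no filter the adjusted p was 0.15. The size depends on the pseudocount. A pseudocount of 1 gave 1.98 (adjusted p = 0.10) and one of 64 gave 0.41 (adjusted p = 0.087), neither past the threshold. The call was also lost without WT clone 1, WT clone 2 or KO clone 1 (adjusted p = 0.14, 0.069 and 0.088), and without KO clone 2 the gene fell under the filter.

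Itgb1, the beta chain common to the collagen, laminin and fibronectin receptors, had 512 and 516 in KO clones, against 300.4 and 291 in WT clones. The clones of each group lay close together and the groups far apart, with a log2 fold change of 0.76 ± 0.18 (95% confidence interval 0.36 to 1.16), but the adjusted p was 0.051. A second bright probe set had 480.5 and 487 in KO clones, against 285 and 312 in WT clones (0.67, adjusted p = 0.080). Another, dim one of suffix _x_at, which marks probes that can match unrelated transcripts, read 7.92 and 30.5 in KO clones, against 17.9 and 29.1 in WT clones (-0.23, adjusted p = 0.72).

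Itgb5, another partner of alpha v, had 287 and 302 in KO clones, against 215 and 235 in WT clones. Both KO clones were higher (0.37, -0.040 to 0.77), without passing, and all of its other 3 kept probe sets had positive fold changes of 0.15 to 0.23. Itgb7, known from lymphocytes, had 22.8 and 44.6 in KO clones, against 47.9 and 63.3 in WT clones, a log2 fold change of -0.55 ± 0.24 (adjusted p = 0.24). Itgb4, the beta chain of the hemidesmosome, overlapped, at 0.075 (-0.44 to 0.59). The probe sets of Itgb6 and Itgb8, further partners of alpha v, were under the filter, and the brightest of each gene read at most 13.96 on any array. Of the integrins of blood cells and related genes outside the 37 (Itga2b, Itga10, Itgae, Itgal, Itgb2 and the beta 1 tail-binding protein gene Itgb1bp1), 0 of 6 measured passed.

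**Figure D2:**
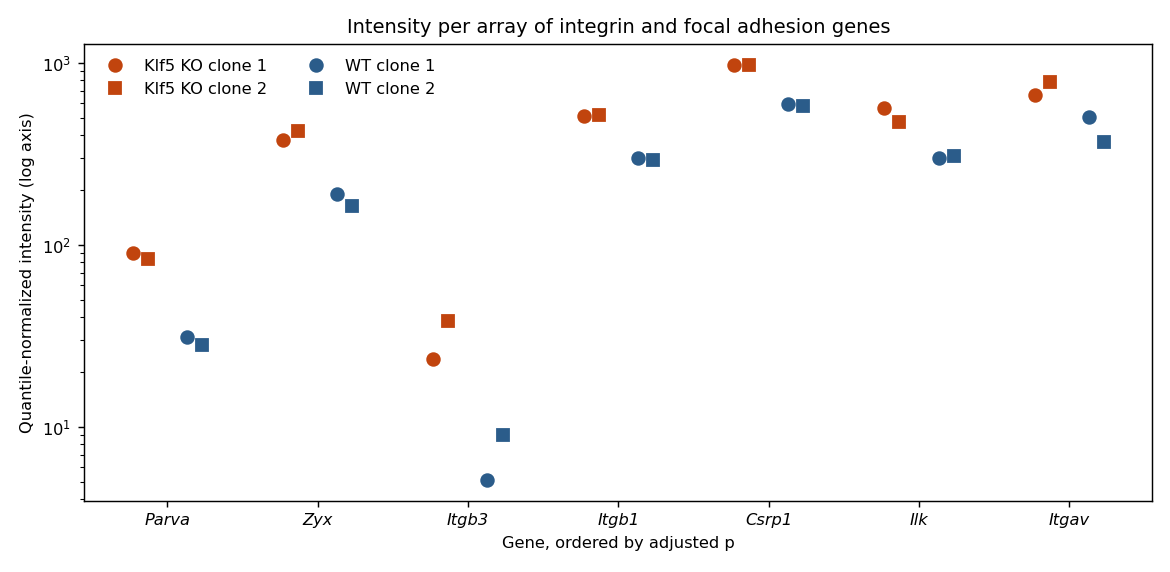
Quantile-normalized intensity (log axis) on each array for the 7 genes that passed the threshold in the reported fit or in any alternative, ordered by adjusted p. Each point is 1 array, KO clones in red at the left and WT clones in blue at the right of each gene. In all 7 both KO clones read above both WT clones, beside 25.9% of all genes. The 7 were picked by calls that were all on the higher side, so this is no separate result.

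Talins and kindlins, the proteins that activate integrins, did not pass. Tln1 had 377 and 442 in KO clones, against 491 and 437 in WT clones, a log2 fold change of -0.18 (-0.60 to 0.25). Tln2 had 109 and 145 in KO clones, against 174 and 179 in WT clones, lower in both KO clones at -0.44 (-0.88 to 0.0049). Fermt2, the kindlin of most adherent cells, had 1268 and 1585 in KO clones, against 1689 and 1291 in WT clones, and its interval ran from -0.54 to 0.42.

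In the Ilk, Pinch and parvin complex 1 of 3 genes passed, on the higher side (33.3%), beside 2.94% of all genes tested. Both KO clones exceeded both WT clones for all 3, beside 25.9% of all genes, though 1 further probe set of Lims1 overlapped between the groups. These proteins bind each other and tie the beta chain's tail to actin: Ilk is an integrin-linked pseudokinase, Lims1 encodes Pinch1 and Parva alpha-parvin. Parva had 90.1 and 83.8 in KO clones, against 31.1 and 28.1 in WT clones. The KO values lay at least 1.08 apart from the WT values on the log2 scale in all pairings. Parva rose by 1.18 ± 0.18 (2.26-fold, adjusted p = 0.0097).

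That Parva value comes from a probe set of suffix _s_at, which marks probes shared between transcripts. The other, without such a suffix, had 51.1 and 76.6 in KO clones, against 43.9 and 26.7 in WT clones. It was higher in both KO clones but did not pass (0.64, adjusted p = 0.18). The call was lost without WT clone 2 (adjusted p = 0.051) or KO clone 2 (0.056), and without KO clone 1, where the second probe set became the brighter one and gave 0.90 (0.24). Fibroblast and feeder cell markers were higher in the same arrays, by a median of 2.13 on the log2 scale, and their part in this result was not tested.

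Ilk had 566 and 473 in KO clones, against 300.1 and 308 in WT clones, a log2 fold change of 0.74 ± 0.19 (0.32 to 1.16) with an adjusted p of 0.068. Lims1 had 573 and 459 in KO clones, against 406 and 346 in WT clones, at 0.44 (-0.012 to 0.88; adjusted p = 0.26). The other 3 kept probe sets of Lims1 ran from 0.060 to 0.30. Outside the 37 genes, beta-parvin went the other way. Parvb, the close relative of Parva that occupies the same place in the complex, had 109.9 and 98.1 in KO clones, against 293 and 213 in WT clones, and fell by 1.15 ± 0.21 (2.22-fold, adjusted p = 0.020). A second Parvb probe set fell as well, by 0.94 ± 0.19 (adjusted p = 0.029), at 13.2 and 18.95 in KO clones, against 45.1 and 45.7 in WT clones. The Parvb call was lost when WT clone 1 (adjusted p = 0.086) or either KO clone (0.12 without clone 1, 0.094 without clone 2) was omitted. Lims2 (Pinch2) had -0.15 (-0.59 to 0.28).

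The signalling proteins of the focal adhesion did not pass. The kinase gene Src had 154 and 228 in KO clones, against 205 and 177 in WT clones (-0.021, -0.52 to 0.48). A dimmer probe set of Src read lower in both KO clones, with 61.0 and 73.7, against 120.2 and 104 in WT clones, and had -0.62 (adjusted p = 0.11). The scaffold gene Pxn (paxillin) had 381 and 495 in KO clones, against 519 and 512 in WT clones (-0.24, -0.68 to 0.21). Bcar1, a scaffold also called p130Cas that is phosphorylated when cells are stretched, had 349 and 436 in KO clones, against 310 and 342 in WT clones (0.25, -0.19 to 0.69).

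Of the 5 actin linkers, 0 passed. Vcl (vinculin), which reinforces the bond between talin and actin, had 1006 and 1399 in KO clones, against 981 and 816 in WT clones. Its log2 fold change was 0.40 (-0.092 to 0.89), and its other probe set had -0.19 (adjusted p = 0.60). Flna (filamin A), a cross-linker of actin, had 918 and 1002 in KO clones, against 797 and 763 in WT clones (0.29, -0.11 to 0.70). On the probe sets that represent them, both genes read higher in both KO clones. The other Vcl probe set read lower in both, with 117 and 135, against 145 and 147 in WT clones.

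The remaining linkers are 2 alpha-actinins and a tensin, further actin-binding proteins. Actn1 had 1174 and 1663 in KO clones, against 1457 and 1265 in WT clones (0.041, -0.45 to 0.53), and its other 2 kept probe sets had -0.41 and 0.15. Actn4 had 2367 and 2692 in KO clones, against 2929 and 2699 in WT clones (-0.15, -0.57 to 0.26). Tns1 had 54.7 and 86.9 in KO clones, against 81.5 and 65.3 in WT clones (-0.062, -0.58 to 0.45). In Actn1 and Tns1 the groups overlapped, and in Actn4 they were separated by less than the distance between the clones of either group.

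Of the 3 LIM domain proteins and the actin-binding protein Vasp, 1 rose (25%), beside 2.94% of all genes tested. Zyx (zyxin), a LIM protein that moves to adhesions and stress fibres under tension, had 374 and 424 in KO clones, against 191 and 162 in WT clones. Its log2 intensity rose by 1.11 ± 0.19, or 2.16-fold (adjusted p = 0.016), and in each pairing the KO clone exceeded the WT clone by at least 0.92. A dim probe set of suffix _x_at had 0.21 (adjusted p = 0.61). The Zyx call held without WT clone 1 and was lost when any of the other 3 arrays was omitted (adjusted p 0.080 to 0.088). The fibroblast marker median of 2.13 stands beside this rise too, and its part was not tested.

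Csrp1, a LIM protein that binds alpha-actinin and zyxin, had 967 and 976 in KO clones, against 592 and 582 in WT clones. The clones of each group nearly coincided, and the log2 fold change was 0.71 ± 0.18 (0.31 to 1.11), with an adjusted p of 0.064. Its second probe set, with 485 and 563 in KO clones, against 271 and 302 in WT clones, passed the threshold (0.83, adjusted p = 0.046). Pdlim7, a PDZ and LIM protein, had 389 and 412 in KO clones, against 392 and 281 in WT clones (0.26, -0.21 to 0.73). Vasp had 738 and 723 in KO clones, against 927 and 735 in WT clones (-0.17, -0.61 to 0.26).

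The promoter windows of Zyx, Csrp1 and Parvb are shown because Zyx and a Csrp1 probe set rose while Parvb fell. Of the 3 genes that rose, Zyx was matched in the table, and Parva and Itgb3 were not. Csrp1 has 2 annotated starts. The windows run from 250 bases before to 50 bases after a gene start (RefSeq, mouse build GRCm38.p6) and are printed 5′ to 3′ on the gene's strand, all of them the plus strand. Capitals mark matches on either strand to GGGCGG, the GC box bound by Sp and Kruppel-like factors, and CACCC, the core of the Kruppel-like factor element. No match overlaps another.
Zyx, chr6:42349578-42349877: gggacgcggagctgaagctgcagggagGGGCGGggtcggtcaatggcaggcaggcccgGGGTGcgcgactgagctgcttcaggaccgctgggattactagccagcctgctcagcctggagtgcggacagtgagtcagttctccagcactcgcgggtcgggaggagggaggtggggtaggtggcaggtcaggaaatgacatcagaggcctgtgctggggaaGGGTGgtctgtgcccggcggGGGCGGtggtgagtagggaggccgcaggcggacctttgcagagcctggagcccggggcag
Csrp1, chr1:135719813-135720112: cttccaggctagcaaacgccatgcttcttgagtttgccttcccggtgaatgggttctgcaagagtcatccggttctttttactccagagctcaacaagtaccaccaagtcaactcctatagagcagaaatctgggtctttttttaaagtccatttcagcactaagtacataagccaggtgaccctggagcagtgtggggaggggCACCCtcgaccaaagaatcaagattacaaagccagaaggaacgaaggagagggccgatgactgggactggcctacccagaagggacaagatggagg
Csrp1, chr1:135728917-135729216: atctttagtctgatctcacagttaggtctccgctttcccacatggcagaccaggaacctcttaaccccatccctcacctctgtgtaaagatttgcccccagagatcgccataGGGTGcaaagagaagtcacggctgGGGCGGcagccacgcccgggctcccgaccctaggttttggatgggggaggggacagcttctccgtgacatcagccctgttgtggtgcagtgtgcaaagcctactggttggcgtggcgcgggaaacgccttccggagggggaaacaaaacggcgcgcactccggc
Parvb, chr15:84231793-84232092: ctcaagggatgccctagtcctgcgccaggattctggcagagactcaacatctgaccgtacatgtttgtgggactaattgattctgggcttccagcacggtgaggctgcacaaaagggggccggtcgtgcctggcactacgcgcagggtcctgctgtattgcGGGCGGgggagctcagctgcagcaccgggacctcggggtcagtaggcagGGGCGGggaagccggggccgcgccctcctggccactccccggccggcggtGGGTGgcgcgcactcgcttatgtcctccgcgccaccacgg

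The Zyx window holds 2 matches to GGGCGG and 2 to CACCC, and the Parvb window, of the gene that fell, holds 2 and 1. The first Csrp1 window holds 0 and 1 and the second 1 and 1. Of 36 windows of 29 of the 37 genes, 61.1% hold GGGCGG and 69.4% hold CACCC, beside 35.7% and 57.5% of all 32851 windows. The CArG box, bound by serum response factor, was found in 3 of the 36 windows (8.33%), those of Vcl and Fermt2 and 1 of the 2 windows of Itgb6, beside 1.63% of all windows, and in none of the windows of Zyx, Csrp1 and Parvb. A match is only a run of letters in the window.

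Different probe sets of a gene did not always go the same way. Of the 20 genes with more than 1 kept probe set, 11 had fold changes of 1 sign and 9 of both signs (Actn1, Bcar1, Fermt2, Itga3, Itga6, Itgb1, Tln1, Tns1 and Vcl). No probe set of the 9 genes passed the threshold. Probe sets of a gene can cover different transcript ends, which the files do not describe.

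**Figure D3:**
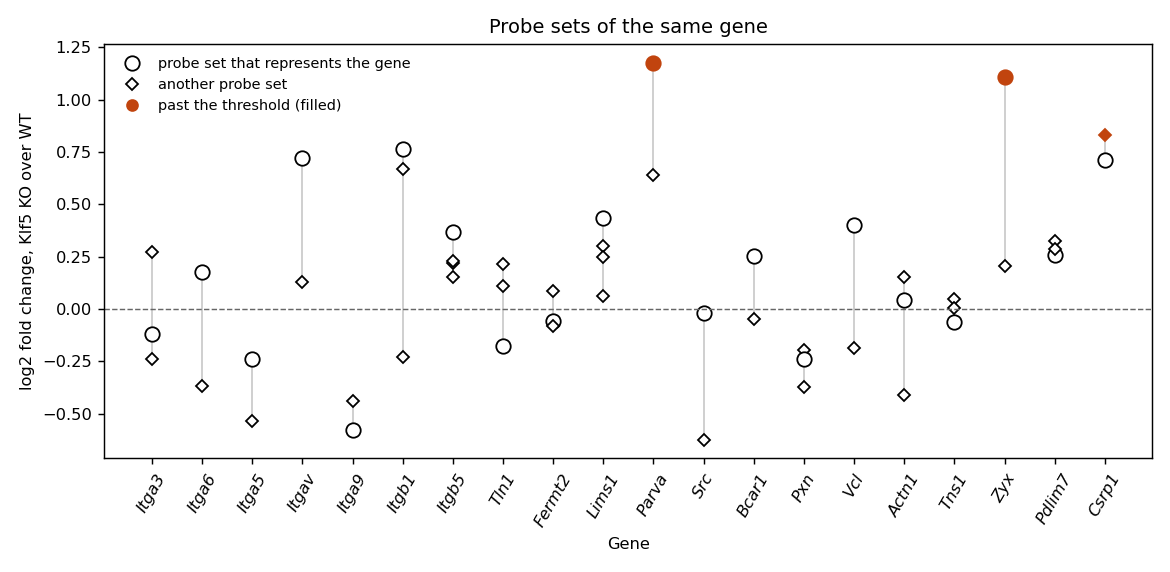
Log2 fold change, Klf5 KO over WT, of every kept probe set of the 20 genes with more than 1. Circles represent the gene in the counts, diamonds are its other probe sets, and filled red symbols passed the threshold (Parva, Zyx and the second probe set of Csrp1).

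The wider adhesion machinery, taken as 83 further genes of actomyosin, adhesion plaques and the signalling around them, moved in both directions. The test called 7 of the 74 measured genes higher (9.46%) and 2 lower (2.70%), beside 2.94% and 1.34% of all genes tested. The median log2 fold change of the 74 genes was 0.0027, beside -0.024 over all genes. Cav1 (caveolin 1), a membrane protein that binds integrin and Src complexes, had 606 and 692 in KO clones, against 105 and 97.7 in WT clones, and rose by 2.50 ± 0.18 (5.67-fold, adjusted p = 0.00023). Myl9, the regulatory light chain of contractile myosin, had 673 and 602 in KO clones, against 133 and 109 in WT clones, and rose by 2.26 ± 0.19 (4.79-fold, adjusted p = 0.00046). Both passed under all 13 alternatives run.

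The LIM protein genes Fhl2 and Limd1 came next. Fhl2 rose by 1.42 ± 0.21 (adjusted p = 0.0078). Without KO clone 1 it had 1.43 and without KO clone 2 it had 1.45, sizes near the reported one, but neither passed (adjusted p = 0.088 and 0.061). Limd1 rose by 1.21 ± 0.21 (adjusted p = 0.019), while its second probe set had -0.26 (adjusted p = 0.49), and the call held only when WT clone 1 was the array omitted (adjusted p 0.092 to 0.12 for the other 3). The other 3 rises were those of Actn2 (alpha-actinin 2), the GTPase gene Rhob and the LIM protein gene Tes, by 1.17, 1.06 and 1.03 on the log2 scale. Each passed in 1 of the 4 fits with an array omitted (adjusted p up to 0.15, 0.15 and 0.25), Actn2 without WT clone 2 and Rhob and Tes without WT clone 1. With arrays centred on their median Rhob and Tes did not pass (0.051 and 0.055). Besides Parvb, Kank2, which binds talin at the rim of adhesions, fell. It had 350.1 and 434 in KO clones, against 706 and 724 in WT clones, a fall of 0.85 ± 0.19 (adjusted p = 0.046). Omission of any of the 4 arrays ended the Kank2 call (adjusted p 0.077 to 0.24), and its second probe set had -0.28 (adjusted p = 0.65).

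Markers of other cells moved in the same arrays. Of 17 measured fibroblast and feeder cell markers, 16 rose (94.1%) and 0 fell, beside 2.94% and 1.34% of all genes tested. Col6a1, Prrx1 and Dcn read under the filter intensity of 13.05 in both WT clones. They were kept through the KO clones, in which they are high, so their count among the rises is no support for a difference. The summed intensity of all 17 measured fibroblast and feeder markers was 10347 to 10735 in KO clones, against 1381 to 1869 in WT clones. Col1a2, a chain of type I collagen, had 877 and 900.2 in KO clones, against 45.7 and 46.2 in WT clones. S100a4, a calcium-binding protein of fibroblasts, had 2960 and 1925 in KO clones, against 31.4 and 32.7 in WT clones. No marker of the list was listed at 0, and Lum and Fap were under the filter. Of 5 measured smooth muscle markers, 3 rose (60%), beside 2.94% of all genes tested. They are Acta2, Tagln and Cnn1, and Acta2 is also on the fibroblast list. The other 2, Smtn and Des, did not pass, at -0.36 and -0.18. In both of them the KO clones read below the WT clones, beside 29.7% of all genes.

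Of the 12 ES cell markers, 0 rose, 0 fell and 12 did not pass (median -0.16). In 7 of them (58.3%) both KO clones read below both WT clones, beside 29.7% of all genes, and in 1 above. Esrrb, a nuclear receptor of the pluripotency network, had the lowest fold change, -0.67 (adjusted p = 0.13). The summed intensity of the 12 markers was 43464 to 44240 in KO clones, against 46131 to 46637 in WT clones. Of 6 primitive endoderm markers 0 passed. Both KO clones read above both WT clones in 3 (50%), beside 25.9% of all genes, and below in 0. Of 8 trophectoderm markers 1 fell (Krt18, 12.5%), beside 1.34% of all genes. Both KO clones read below both WT clones in 5 (62.5%), beside 29.7%, and above in 2. Of 4 markers of endothelium and blood 1 fell (25%), Vwf, with 3.36 and 15.7 in KO clones, against 40.7 and 35.1 in WT clones. Vwf was kept through the WT clones, in which it is high, so its count is no support for a difference. Among the 32 measured integrin and focal adhesion genes the largest rise was 1.18, for Parva, beside the fibroblast marker median of 2.13, while Cav1 and Myl9 of the further adhesion genes had 2.50 and 2.26.

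**Figure D4:**
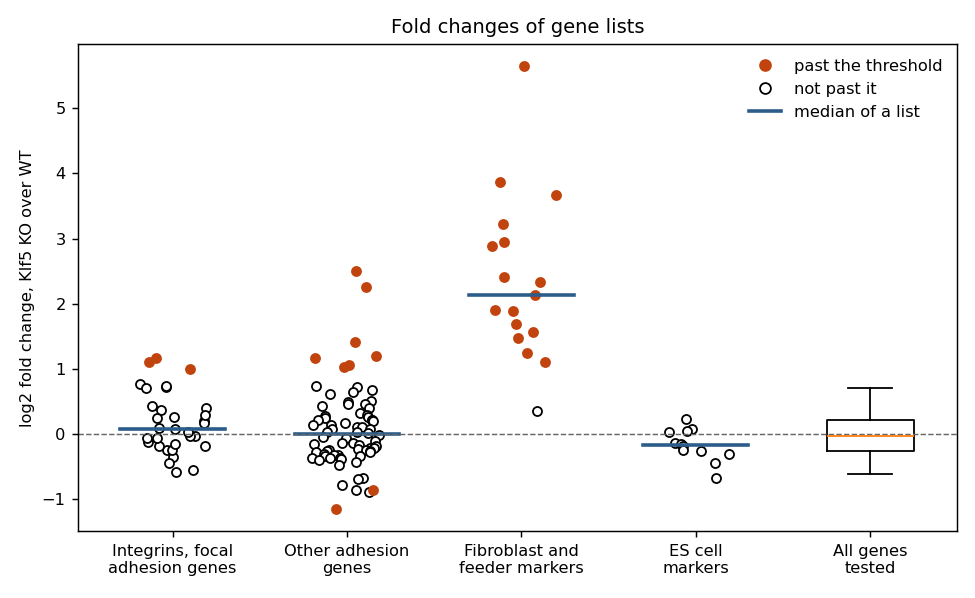
Log2 fold change, Klf5 KO over WT, of the 32 measured integrin and focal adhesion genes, 74 further adhesion genes, 17 fibroblast and feeder markers and 12 ES cell markers (points, 1 per gene, with the list median as a blue line), and of all 13023 genes tested (box from the 25th to the 75th percentile, line at the median, whiskers at the 5th and 95th). The medians of the adhesion lists lie near 0 (0.087 and 0.0027) and that of the fibroblast markers at 2.13.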

How the data were processed

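The values deposited by the authors are linear intensities, 1 for each probe set on each array (45101 rows, including 64 controls). The sources used here do not state how they were summarised, background corrected and scaled. Deposited trimmed means differed by 1.65 times between arrays, so the arrays were quantile normalized and log2(intensity + 16) was taken, a scale that understates changes of dim genes. Control rows and probe sets with a mean below the 40th percentile (intensity 13.05) were left out. KO and WT were compared across all 27022 kept probe sets with lmFit and eBayes (limma 3.58.1, R 4.3.3), with Benjamini-Hochberg adjustment. Gene names come from the platform annotation, and 34945 rows with 1 symbol could be named. Each gene was represented by its brightest probe set, an _x_at one only where there was no other. Genes were named by a rule: all 37 genes, Klf5, the 4 largest rises and falls past the threshold among the further adhesion and integrin genes, and markers. Others named by list were chosen after their values were seen. The 37 genes, the lists and the tests were chosen with earlier results of these data known. The fit was tested on simulated data. Arrays carry no depth; their number limits the precision.

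The alternatives were pseudocounts of 1 and 64, no filter or one at the 60th percentile, values as deposited, centring on the median, a variance trend, clone number as a block, averaging all probe sets of a gene, each array left out, and fold criteria of 2 and 1.5.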

Additional observations from a re-analysis of the deposited data

How the results depend on the processing

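The count of probe sets past the threshold, 996 as reported, was 189 with a pseudocount of 1, 2060 with 64, 190 without a filter, 332 in the values as deposited, 2058 with centring on the median, 1955 with a variance trend, and 203 to 653 with an array left out. The 3 adhesion genes that rose became 0 with a pseudocount of 1, without a filter and as deposited, 6 with a pseudocount of 64, 5 with the filter at the 60th percentile, 7 with a variance trend, 5 when all probe sets of a gene were averaged and 0 to 2 with an array left out (Parva and Zyx without WT clone 1). By fold alone they were 1 at 2-fold and 6 at 1.5-fold. The count of genes that fell was 0 under all of these. Clone numbers are not stated to pair the samples, and deviations of same-numbered clones from their group means correlated at 0.055 across probe sets. Clone number as a replicate block gave 1390 probe sets and 4 adhesion genes that rose, with Itgb1 added (0.76, adjusted p = 0.047), and no adhesion gene lost its call. The median log2 fold change, 0.087, was -0.096 as deposited, where that of all genes was -0.23, -0.059 with centring, where that of all genes was -0.19, and -0.15 to 0.24 with an array left out. Parva passed in 7 of 13 alternatives. It did not with a pseudocount of 1 (1.53), no filter (1.18) or as deposited (1.04), and with an array left out it had 0.90 to 1.23. Zyx passed in 7 of 13, but not with a pseudocount of 1 (1.17), no filter (1.11) or as deposited (0.80), and had 1.01 to 1.21 with an array left out. Itgb3 passed in 4 of the 11 in which it was measured, but not with a pseudocount of 1 (1.98) or 64 (0.41), no filter (1.01) or as deposited (0.98), and had 0.84 to 1.24 with an array left out. The cause of these changes was not tested. None of the called adhesion genes changed sign under these alternatives. Dim genes such as Itgb3, Itga2 and Itga7 are limited by their signal over background.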
